A study of Danio rerio with 12 samples.

Results

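The response of zebrafish larvae lacking a working arsenite methyltransferase gene to inorganic arsenic (iAs) was measured by poly-A RNA-seq, as read counts per gene. The rule took the 3 libraries titled as as3mt mutant in 1 mM iAs and the 3 titled as as3mt mutant in 0 mM iAs, 6 of the 12 libraries of the series, and every gene that passed a filter on low counts. Arsenic at 1 mM was given to the treated mutants at 6 hours post-fertilization and left until collection, in wells of 10 mL that held 20 embryos, and untreated mutants received none. Both groups carried the as3mt deletion of 8 bp in exon 3 on both copies, in a line of the ABNYU background. Each library came from a pool of 10 whole larvae collected at 119 hours post-fertilization. The other 6 libraries came from TAB14 wild-type larvae, 3 treated the same way and 3 untreated. They are used below to ask where the mutant response differed and to set the spread of the groups side by side. In these comparisons genotype and strain cannot be told apart. The wild-type libraries also entered the filter, the scaling and the shared estimate of spread behind the mutant calls. The libraries of each group are called libraries 1, 2 and 3 after the numbers in their titles.

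Arsenite binds closely spaced thiols on proteins, depletes glutathione and generates oxidants. Cells answer it mainly through Nrf2, which is held down by Keap1 and drives glutathione and NADPH enzymes, through heat shock factors, and through metal-responsive transcription of metallothionein. As3mt adds methyl groups to arsenic, chiefly in the liver, and the methylated forms are more readily excreted. The larvae studied here therefore carried iAs with this enzyme's gene interrupted. In pools of whole larvae a lower transcript level can come from fewer cells of a type or from less RNA per cell, and these cannot be told apart for any tissue gene below.

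The 6 mutant libraries held 32934791 to 38382990 counts. The first principal component of log2 expression took 82.2% of their variance and parted all 3 treated from all 3 untreated libraries. Mitochondrial transcripts took 4.06 to 4.25% of the counts in treated mutants and 4.33 to 4.50% in untreated mutants. Levels are given in CPM, the usual scaling of read counts by library total, after adjustment for library composition (TMM). Fold changes and adjusted p-values come from edgeR's quasi-likelihood test with Benjamini-Hochberg adjustment over 23096 genes, and a gene is said to rise or fall where the adjusted p was below 0.05. The targeted transcript was checked first. AS3MT stood at 3.02, 3.31 and 3.51 CPM in treated mutants, against 9.21, 9.91 and 9.52 CPM in untreated mutants, and all 3 treated libraries lay below all 3 untreated ones. It fell 2.91-fold (log2 fold change -1.54, SE 0.11, adjusted p = 1.1e-09), and a count over the whole gene does not show whether protein was made.

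Arsenic moved most of the measured transcriptome of the mutant. Of 23096 genes, 7172 rose, which is 31.1%, and 7523 fell, which is 32.6%. Most of these changes were small, since 1983 genes (8.59%) rose and 2764 (12.0%) fell at least 2-fold. At 16-fold or more there were 83 rises and 86 falls, and at 64-fold or more 20 rises and 18 falls. Treated and untreated libraries did not overlap for 66.7% of all genes. Counts of list members below are to be read against these shares of 31.1% and 32.6%. The genes with the largest rises by the naming rule coded for leptin (lepb), heat shock proteins of the hsp70 family (hsp70l, hsp70.1, hsp70.3, HSPA2 and hspa1b), the AP-1 subunit FOSL1, metallothionein (MT1X), ferritin heavy chains (fthl28 and fthl31), the prostaglandin reductase ptgr1.2 and CYB561A3 (ENSDARG00000028257), a cytochrome b561 family gene. Those with the largest falls included fetuin (ahsg2), the bile salt export pump (ABCB11), the intestinal enzymes and transporters LCT (ENSDARG00000060671), cpo, SLC15A1 (ENSDARG00000100315), ENPP7 (ENSDARG00000053526) and chia.1, the myelin gene mbpa, and nr5a5, zanl and ankrd33ab.

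**Figure D1:**
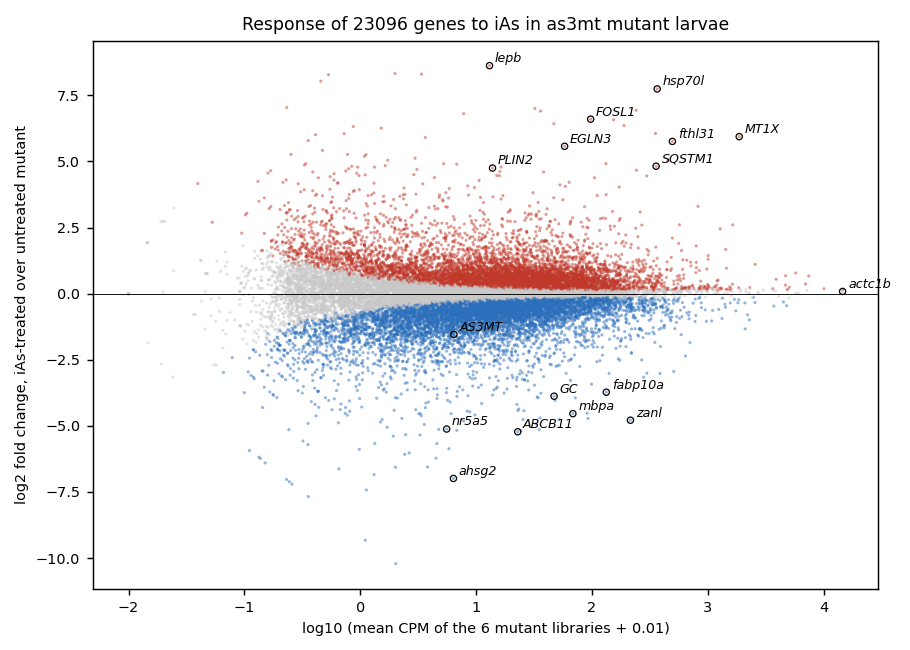
Log2 fold change of each tested gene, iAs-treated over untreated mutant, against the log10 of its mean CPM over the 6 mutant libraries. Red points rose, blue points fell and grey points passed neither way; MT1X, hsp70l and lepb stand at the top, ahsg2 and ABCB11 at the bottom, while the muscle actin gene actc1b lies near 0. Fitted values past about -7 belong to genes at or near 0 counts and are no bounds.

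Genes of metal binding and iron storage were among the largest rises. Among genes that handle metals or iron, 13 of 23 genes rose and 6 fell (median log2 fold change 0.33). MT1X, a metallothionein that binds metals through its cysteines, stood at 3949, 3349 and 3686 CPM in treated mutants, against 58.7, 52.2 and 68.6 CPM in untreated mutants. It rose 61.2-fold (log2 fold change 5.94, SE 0.11, adjusted p = 3.2e-17). The ferritin heavy chain gene fthl28, whose product stores iron, stood at 708, 614 and 761 CPM in treated mutants, against 8.3, 10.0 and 13.1 CPM in untreated mutants, and all 3 treated libraries were far above the untreated ones. It rose 66.5-fold, fthl31 54.0-fold, fthl27 9.85-fold and fth1a 2.46-fold, and these near-identical copies may share reads. The iron exporter gene SLC40A1 rose 1.83-fold, while the transferrin gene tfa fell 1.76-fold and one of the transferrin receptor genes, tfr1a, 3.15-fold. The related receptor gene tfr1b rose 1.53-fold.

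Genes of arsenic uptake, efflux and conjugation split in both directions, as 9 of 23 genes rose and 12 fell (median log2 fold change -0.27). The genes gsto2 and gsto1 code for glutathione transferases of the omega class, which in mammals reduce arsenic species, and rose 5.85-fold and 5.8-fold. By library, gsto2 stood at 289, 225 and 285 CPM in treated mutants, against 41.1, 48.0 and 47.3 CPM in untreated mutants, with no overlap. The efflux pump genes abcc2, ABCC4 and ABCC1, of a family that exports arsenic bound to glutathione in mammals, rose 1.58-fold, 1.7-fold and 1.23-fold. Of the aquaglyceroporin genes, whose channels admit arsenite, aqp9b had a log2 fold change of 0.00 (adjusted p = 0.97) and AQP3 (ENSDARG00000069518) fell 2.7-fold. The sodium-phosphate cotransporter gene SLC34A2, of a family that takes up arsenate, fell 4.99-fold, and its relative slc34a2b rose 2.41-fold. The glucose transporter gene SLC2A2 fell 5.89-fold, the largest fall of the list.

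Nrf2's own circuit rose on both its inducing and its restraining side. Among Nrf2 regulators and partners 10 of 13 genes rose and 0 fell (median log2 fold change 1.79). SQSTM1, the autophagy receptor p62 that binds Keap1, stood at 740.1, 599 and 728 CPM in treated mutants, against 22.7, 23.6 and 27 CPM in untreated mutants. It rose 28.2-fold (log2 fold change 4.82, SE 0.14, adjusted p = 1.1e-14). The repressor genes BACH1 and keap1a rose 6.48-fold and 5.97-fold, and NFE2L2, which codes for Nrf2 itself, rose only 1.42-fold. The glutathione list was mixed, as 11 of 21 genes rose and 6 fell (median log2 fold change 0.39). The enzymes that make and recycle glutathione rose together: glutathione reductase GSR 7.26-fold, the synthase GSS 4.12-fold, and the ligase subunits GCLM and GCLC 3.99-fold and 2.85-fold. The cystine carrier gene slc7a11 rose 2.47-fold, and the pi-class transferase genes gstp1.1 and gstp1.2 rose 6.18-fold and 6.08-fold. Against these, gpx4a, a glutathione peroxidase that acts on lipid peroxides, fell 3.64-fold, OPLAH, which opens the glutathione breakdown product 5-oxoproline, 2.6-fold, and CHAC1, which degrades glutathione, 1.58-fold.

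Several genes whose enzymes form NADPH, which keeps glutathione and thioredoxin reduced, rose. PGD, an NADPH-forming dehydrogenase of the pentose phosphate pathway, stood at 271, 286 and 287 CPM in treated mutants, against 56.4, 57.5 and 61.9 CPM in untreated mutants, so the groups lay well apart. It rose 4.8-fold and the malic enzyme gene ME1 7.97-fold. Genes of the non-oxidative arm of the pentose phosphate pathway went both ways. The transaldolase gene TALDO1 rose 3.3-fold. The transketolase gene TKT stood at 58.1, 50.9 and 55.2 CPM in treated mutants, against 159.7, 153 and 132 CPM in untreated mutants, and fell 2.71-fold. The peroxiredoxin gene prdx1 rose 21.9-fold. Haem oxygenase HMOX1, which frees iron from haem, stood at 42.2, 38.7 and 41.7 CPM in treated mutants, against 11.2, 9.31 and 12.5 CPM in untreated mutants and rose 3.71-fold, and the haem-linked transporter ABCB6 (ENSDARG00000063297) rose 8.1-fold. Catalase (CAT) fell 1.62-fold, and NQO1, a textbook Nrf2 target in mammals, had a log2 fold change of 0.06 (adjusted p = 0.50). Of the whole list of oxidant reductases and NADPH enzymes 13 of 23 genes rose and 4 fell (median log2 fold change 0.69).

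Most cytosolic chaperone genes rose. In that list 32 of 37 genes rose and 2 fell (median log2 fold change 1.3). The inducible chaperone gene hsp70l stood at 1493, 296 and 388 CPM in treated mutants, against 3.08, 4.2 and 2.91 CPM in untreated mutants, so library 1 held far more than libraries 2 and 3 and none overlapped the untreated ones. It rose 214-fold (log2 fold change 7.74, SE 0.57, adjusted p = 1.8e-09), and still 101-fold without treated library 1. Without that library hsp70.1 stood at 64.2-fold, hsp70.3 at 74.0-fold and HSPA2 at 50.9-fold, against 128-fold, 122-fold and 95.3-fold with it. These genes are close copies, so the split of reads among them is uncertain. HSP90AA1, the stress-induced cytosolic Hsp90, was steadier at 1157, 688 and 781 CPM in treated mutants, against 25.9, 28.2 and 26.8 CPM in untreated mutants. It rose 32.5-fold, the J-domain cochaperone gene dnajb1b 24.1-fold, the nucleotide exchange partner HSPH1 8.46-fold, and the small heat shock gene HSPB1 4.52-fold. The constitutive HSP90AB1, already abundant, rose 1.46-fold, and HSPA4L fell 1.43-fold. Without any 1 of the libraries treated 1, treated 3, untreated 2 or untreated 3, 1 member of the list fell in place of 2.

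Genes of protein disposal rose in large numbers. All 44 tested genes of the proteasome list rose, with a median log2 fold change of 0.83 against 0.01 over all genes. Most members moved little apart from one another, and PSME4 (ENSDARG00000087911), which codes for the proteasome activator PA200, stood out. It stood at 131, 59.0 and 88.9 CPM in treated mutants, against 19.1, 17.9 and 20.1 CPM in untreated mutants and rose 4.89-fold. The proteasome subunit gene PSMD11 (ENSDARG00000005134) rose 2.37-fold and the ubiquitin receptor ADRM1 2.16-fold. Many of these genes rose less in the mutant than in wild type: the interaction, that is the mutant response minus the wild-type response on the log2 scale, was called negative for 20 of 44 genes and positive for 2, beside 17.9% and 12.3% of all genes. Other lists had negative interactions in a larger share of their genes, among them the aminoacyl-tRNA synthetases with 10 of 20. In the autophagy and lysosome list 32 of 41 genes rose and 3 fell (median log2 fold change 0.64). Lysosomal proteases led it, as CTSD stood at 798, 839 and 760.4 CPM in treated mutants, against 178, 184 and 197 CPM in untreated mutants and rose 4.28-fold, CTSB 3.75-fold and ctsla 3.18-fold. The saposin precursor PSAP rose 3.49-fold, the membrane protein LAMP1 3.77-fold, and the autophagy receptor OPTN 3.08-fold.

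Leptin and AP-1 genes were among the largest rises, with a wide spread among the treated libraries. The leptin gene lepb stood at 40.7, 14.3 and 23.1 CPM in treated mutants, against 0.126, 0.0549 and 0 CPM in untreated mutants. Library 1 was highest and library 2 lowest, and all 3 were far above the untreated pools. It rose 394-fold (log2 fold change 8.62, SE 0.57, adjusted p = 4.2e-10). This was 829-fold without untreated library 1, so the size of the lepb rise rests on few counts in untreated mutants. The second leptin gene, lepa, stood at 11, 4.5 and 4.6 CPM in treated mutants, against 0.0252, 0.0275 and 0 CPM in untreated mutants. With 2 counts in all untreated mutants its ratio was 364 (exact 95% interval 100.5 to 3014, counting error only). The cytokine gene il11a, of the interleukin 6 family, stood at 13.7, 3.37 and 4.35 CPM in treated mutants, against 0.101, 0.11 and 0.141 CPM in untreated mutants. It rose 59.7-fold, and 32.1-fold without treated library 1. Receptor and signalling genes among the rises were the shared receptor il6st at 4.66-fold, STAT3 4.07-fold, JAK1 2.77-fold, the leptin receptor lepr 2.59-fold, and the feedback inhibitor SOCS3 (ENSDARG00000026611) 6.7-fold. In the list of interleukin 6 family, leptin and Stat3 genes 19 of 25 genes rose and 3 fell (median log2 fold change 0.85).

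Most called immediate early genes rose. In that list 19 of 32 genes rose and 4 fell (median log2 fold change 0.85). FOSL1 stood at 344, 84.2 and 149 CPM in treated mutants, against 1.16, 1.26 and 3.62 CPM in untreated mutants, highest in library 1 and lowest in library 2. It rose 96.9-fold, and 58.7-fold without treated library 1 and 157-fold without untreated library 3, which was the highest of the untreated. ATF3, a stress-induced partner of Jun proteins, stood at 365, 179 and 219.9 CPM in treated mutants, against 8.43, 8.13 and 8.79 CPM in untreated mutants and rose 30.2-fold (log2 fold change 4.92, SE 0.22, adjusted p = 2.6e-12). JUN rose 3.79-fold and FOSL2 3.1-fold. JUNB (ENSDARG00000104773) rose 7.2-fold and JUNB (ENSDARG00000074378) 7.11-fold, with 4.43-fold and 4.73-fold in turn without treated library 1. The falls included NR4A1 and KLF4, factors that also respond early to stimuli, at 4.34-fold and 3.62-fold, with 6.11-fold for KLF4 without treated library 1. The KLF4 relative klf2a fell 2.22-fold, while KLF6, of the same family, rose 1.89-fold. Without treated library 1, 8 members of the list fell in place of 4.

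Most cytokine genes rose, while matrix genes and markers of white cells went both ways. Among cytokines, chemokines and NF-kB feedback genes 21 of 28 genes rose and 1 fell (median log2 fold change 1.28). The chemokine genes ccl34a.4 and cxcl18b rose 34.8-fold and 29.7-fold, cxcl8a, which draws neutrophils, 17.7-fold, and il1b 7.3-fold. Without untreated library 3 ccl34a.4 stood at 102-fold, and without treated library 1 cxcl8a stood at 9.94-fold and il1b at 4.34-fold. PTGS2 (ENSDARG00000010276), a prostaglandin-forming cyclooxygenase, rose 6.07-fold, but 3.42-fold without treated library 1 and 9.17-fold without untreated library 3. In the matrix list 14 of 29 genes rose and 10 fell (median log2 fold change 0.36), and its share of falls was close to that of all genes. The collagenase gene mmp13a stood at 58.7, 13.1 and 20.5 CPM in treated mutants, against 1.41, 1.02 and 1.33 CPM in untreated mutants and rose 24.5-fold, and 13.3-fold without treated library 1. Against it, the paralog mmp13b fell 2.1-fold, the urokinase gene PLAU 3.06-fold and the matrix protease genes mmp30 and MMP11 2.42-fold and 2.27-fold. Without treated library 1 or untreated library 1, mmp13b had a log2 fold change of -0.94 and missed the threshold. Of neutrophil markers 12 of 20 genes rose and 5 fell (median log2 fold change 0.69), with a summed level of 360.0 to 553 CPM in treated mutants and 232 to 239 CPM in untreated mutants. That list shares 6 members with the matrix list, namely mmp13a, MMP9, mmp25b, adam8a and both TIMP2 genes, protease inhibitors. Of the other 14 members 7 rose and 5 fell, and their summed level was 130.5 to 152 CPM in treated mutants and 107 to 114 CPM in untreated mutants. Of these 14, cybb and cyba rose 4.6-fold and 2.65-fold, while the granule gene lyz fell 2.98-fold and npsn 1.61-fold. Of macrophage markers 14 of 27 genes rose and 6 fell (median log2 fold change 0.49), with a summed level of 686 to 789 CPM in treated mutants and 939 to 1038 CPM in untreated mutants, where apoeb, which other tissues also express, makes up most. MPEG1 (ENSDARG00000043093), a pore-forming protein of macrophages, stood at 47.5, 50.5 and 44.4 CPM in treated mutants, against 7.39, 5.22 and 6.95 CPM in untreated mutants and rose 7.27-fold, while csf1rb and cd74b fell 3.08-fold and 5.14-fold. The part of white cells in the cytokine and matrix results was not tested. Of interferon-stimulated genes 12 of 25 genes rose and 5 fell (median log2 fold change 0.55), with isg15 up 16.8-fold and IRF7 2.42-fold. Against these, ifit15 had 0 counts in all 3 treated mutants, against 17, 10 and 5 counts in untreated mutants. It was at least 10.5-fold lower with a floor of 3 counts over the group.

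Translation control, growth arrest and low-oxygen genes also rose in part. In the list of the integrated stress response, which slows translation through eIF2 alpha, 20 of 36 genes rose and 7 fell (median log2 fold change 0.36). The phosphatase subunit gene ppp1r15a rose 7.12-fold, CEBPB 6.82-fold, sesn2 3.76-fold and atf4b 2.08-fold. Amino acid genes of the list parted: the serine-forming phosphatase PSPH rose 2.14-fold, while the transaminase GPT2 and the one-carbon enzyme SHMT2 fell 1.78-fold and 1.56-fold. With library size alone as the scale, 11 of these genes fell in place of 7. Of aminoacyl-tRNA synthetases, which load amino acids on tRNA, 18 of 20 genes rose and 0 fell (median log2 fold change 0.45), led by EPRS1 at 2.02-fold. In the endoplasmic reticulum list 9 of 32 genes rose and 6 fell (median log2 fold change 0.03). The oxidase gene ERO1A rose 8.46-fold and the chaperone HSPA5 1.98-fold, while pdia2 and CALR, also luminal folding proteins, fell 1.99-fold and 1.93-fold.

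Of p53 targets 22 of 32 genes rose and 5 fell (median log2 fold change 0.95). The growth arrest genes GADD45B (ENSDARG00000027744) and GADD45B (ENSDARG00000013576) rose 5.76-fold and 4.93-fold, mdm2, which degrades p53, 3.32-fold, rps27l 3.82-fold and the pro-death gene BAX 3.00-fold. The cell cycle inhibitor cdkn1a, a main p53 target in other settings, went down: it stood at 76.4, 74.3 and 75.1 CPM in treated mutants, against 115, 124 and 125 CPM in untreated mutants and fell 1.61-fold. Among targets of hypoxia-inducible factor 24 of 36 genes rose and 7 fell (median log2 fold change 0.84). EGLN3, a prolyl hydroxylase that marks that factor for decay, stood at 99.7, 144 and 96.9 CPM in treated mutants, against 2.52, 2.14 and 2.49 CPM in untreated mutants. It rose 47.5-fold (log2 fold change 5.57, SE 0.15, adjusted p = 3.4e-15), ANKRD37 12.6-fold, and the vessel-dilating peptide gene ADM (ENSDARG00000069027) 14.1-fold. LDHA, a glycolytic member, rose 1.7-fold. The transcript of HIF1A itself had a log2 fold change of -0.04 (adjusted p = 0.64), and ca9, a carbonic anhydrase counted among the targets, fell 3.1-fold.

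Most genes of the list of DNA replication and mitosis fell, as 1 of 44 genes rose and 32 fell (median log2 fold change -0.50). MCM2, a subunit of the replicative helicase, stood at 29.6, 39.1 and 35.0 CPM in treated mutants, against 83.3, 90.4 and 83.9 CPM in untreated mutants, with no overlap, and fell 2.48-fold. Its partners MCM5 and MCM6 (ENSDARG00000057683) fell 2.6-fold and 2.3-fold, the nucleotide reductase subunit RRM2 (ENSDARG00000078069) 2.61-fold, and the sliding clamp PCNA 2.00-fold. The mitotic kinase plk1 had a log2 fold change of -0.05 (adjusted p = 0.60) and AURKB one of -0.19 (adjusted p = 0.17). The interaction was called negative for 35 of 44 genes, beside 17.9% of all genes, and the median log2 fold change in wild type was 0.14. Ribosome biogenesis went up at the same time, as 31 of 37 genes rose and 1 fell (median log2 fold change 0.43), from 1.96-fold for UTP4 downward, with 0 falls in place of 1 without untreated library 2, treated library 1 or treated library 2.

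**Figure D2:**
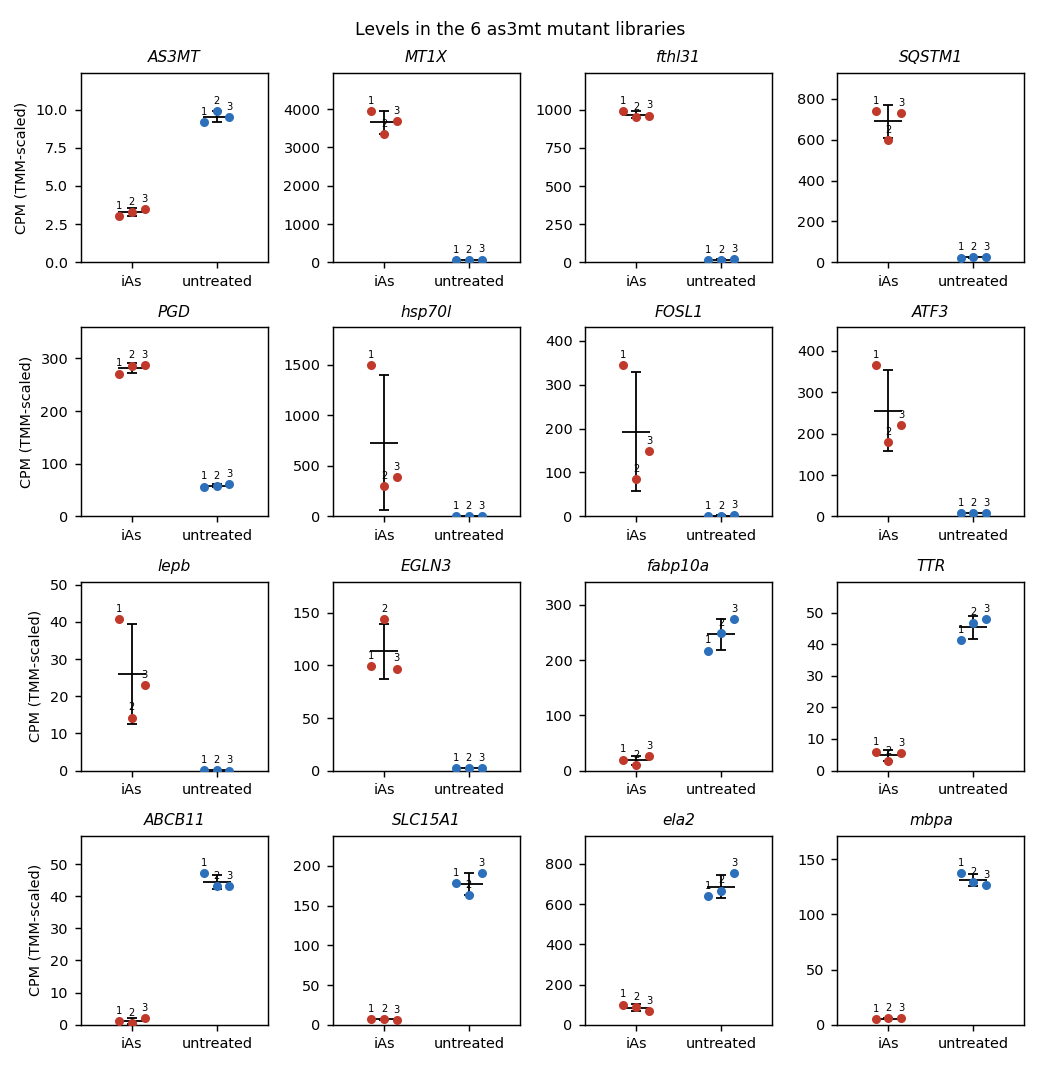
Level in CPM of 16 genes in the 3 iAs-treated (red, left) and 3 untreated (blue, right) as3mt mutant libraries, numbered by library, with the mean and SD as black lines and linear axes from 0. For all 16 the groups do not overlap; hsp70l, FOSL1, ATF3 and lepb are highest in treated library 1, and PGD, fthl31, SLC15A1 and mbpa vary little among treated libraries.

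Most liver genes fell, and some plasma protein genes rose. Of secreted plasma proteins 10 of 45 genes rose and 28 fell (median log2 fold change -0.59). The vitamin D carrier GC, a hepatocyte product, stood at 6.39, 5.04 and 6.51 CPM in treated mutants, against 79.6, 90.8 and 93.6 CPM in untreated mutants and fell 14.7-fold, and the thyroid hormone carrier TTR fell 9.43-fold. The fetuin gene ahsg2 stood at 0.027, 0.198 and 0.0626 CPM in treated mutants, against 12.2, 10.1 and 15.5 CPM in untreated mutants and fell 127-fold, or 264-fold without treated library 2. Fibrinogen, the clot protein that rises in acute inflammation, went the other way: FGG stood at 199.6, 234 and 201 CPM in treated mutants, against 72.6, 84.8 and 81.9 CPM in untreated mutants, and FGG, fga and FGB rose 2.65-fold, 1.99-fold and 1.94-fold. The complement genes cfb and c4 rose 2.21-fold and 3.44-fold. Of liver enzymes and binding proteins 4 of 36 genes rose and 25 fell (median log2 fold change -0.83). The liver fatty acid binding protein gene fabp10a stood at 19.7, 10.4 and 25.8 CPM in treated mutants, against 217, 249 and 274 CPM in untreated mutants, with library 2 lowest, and fell 13.2-fold (log2 fold change -3.73, SE 0.21, adjusted p = 5.0e-11). The cytochrome P450 gene cyp2ad2 fell 8.81-fold, and TDO2, which opens the tryptophan ring, 6.72-fold. The rises included FAH and HGD, of tyrosine breakdown, at 2.15-fold and 2.02-fold. CYP1A1, the aryl hydrocarbon receptor target that is not in these lists, stood at 14.5, 17.5 and 17.4 CPM in treated mutants, against 82.7, 77.4 and 73.5 CPM in untreated mutants and fell 4.74-fold.

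Transcription factor genes of the liver and gut had a median nearer 0. In that list 3 of 29 genes rose and 14 fell (median log2 fold change -0.22), with 6 rises in place of 3 without treated library 2. HNF4A fell 1.44-fold and CEBPA had a log2 fold change of 0.08 (adjusted p = 0.31). The nuclear receptor gene nr5a5 stood at 0.297, 0.198 and 0.439 CPM in treated mutants, against 12.5, 8.18 and 11.7 CPM in untreated mutants and fell 34.8-fold. Bile acid genes fell, as 0 of 22 genes rose and 20 fell (median log2 fold change -1.3). Without untreated library 2, 1 of them rose in place of 0. CYP7A1, the rate-limiting enzyme of bile acid synthesis, stood at 12.0, 16.4 and 17 CPM in treated mutants, against 48.0, 46.7 and 59.0 CPM in untreated mutants and fell 3.4-fold. ABCB11, the pump that moves bile salts into the canaliculus, stood at 1.08, 0.453 and 2.1 CPM in treated mutants, against 47.1, 43.1 and 43.1 CPM in untreated mutants and fell 37.4-fold, or 57.3-fold without treated library 3. FABP6, the ileal bile acid binding protein, fell 6.74-fold, so synthesis, export and gut recovery were all represented.

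Enterocyte genes fell, as 1 of 47 genes rose and 45 fell (median log2 fold change -2.44). The peptide transporter SLC15A1 (ENSDARG00000100315) stood at 6.74, 7.31 and 6.11 CPM in treated mutants, against 178, 163 and 190.4 CPM in untreated mutants. It fell 26.3-fold (log2 fold change -4.72, SE 0.09, adjusted p = 3.2e-17), the lactase LCT (ENSDARG00000060671) 30.3-fold, the fructose carrier SLC2A5 17.6-fold, and the cholesterol transporter NPC1L1 6.51-fold. The meprin gene MEP1B (ENSDARG00000037533), a brush-border protease, had 0 counts in all 3 treated mutants, against 188, 74 and 188 counts in untreated mutants, and was at least 147-fold lower with a floor of 3 counts over the group. The structural gene VIL1 fell 2.5-fold, less than most absorptive genes, and apoa4a, a lipoprotein gene, rose 2.62-fold. More gut hormone and goblet genes fell than rose, as 3 of 19 genes rose and 9 fell (median log2 fold change -0.47). The glucagon gene gcga stood at 23.8, 11.6 and 16.2 CPM in treated mutants, against 4.39, 3.29 and 4.1 CPM in untreated mutants and rose 4.38-fold, and its paralog GCG 3.59-fold. Falls of this list included FER1L6 at 1.86-fold, penka at 1.69-fold and muc5.1 at 1.38-fold.

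Exocrine pancreas genes fell unevenly, as 0 of 24 genes rose and 22 fell (median log2 fold change -1.58). The elastase ela2 fell 8.12-fold, ela3l 5.68-fold and SYCN (ENSDARG00000103687) 7.34-fold. The chymotrypsin gene ctrb.1, by contrast, stood at 1263, 1318 and 1043 CPM in treated mutants, against 1511, 1536 and 1735 CPM in untreated mutants and fell 1.32-fold. The protease genes are close relatives, so reads may have been shared among them. Metabolic lists moved less. Of glucose production and glucocorticoid target genes 4 of 23 genes rose and 13 fell (median log2 fold change -0.42), and PCK1 had a log2 fold change of 0.11 (adjusted p = 0.36). Of cholesterol and fatty acid synthesis genes 5 of 36 genes rose and 15 fell (median log2 fold change -0.27), with LPIN1, a phosphatidate phosphatase gene, down 3.46-fold. Of fatty acid oxidation genes 7 of 26 genes rose and 15 fell (median log2 fold change -0.21). PLIN2, which coats lipid droplets, stood at 27.9, 22.9 and 29.1 CPM in treated mutants, against 0.908, 1.1 and 0.961 CPM in untreated mutants, wide apart between the groups, and rose 26.9-fold. Nuclear genes of oxidative phosphorylation stayed near 0, as 7 of 34 genes rose and 6 fell (median log2 fold change 0.08), with 4 rises in place of 7 without untreated library 1, 15 without untreated library 3, and 2 falls in place of 6 without treated library 2. The mitochondrial protease LONP1 rose 3.02-fold and the chaperones HSPE1 and HSPD1 2.46-fold and 2.05-fold, in a list of mitochondrial folding genes where 14 of 24 genes rose and 3 fell (median log2 fold change 0.20).

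**Figure D3:**
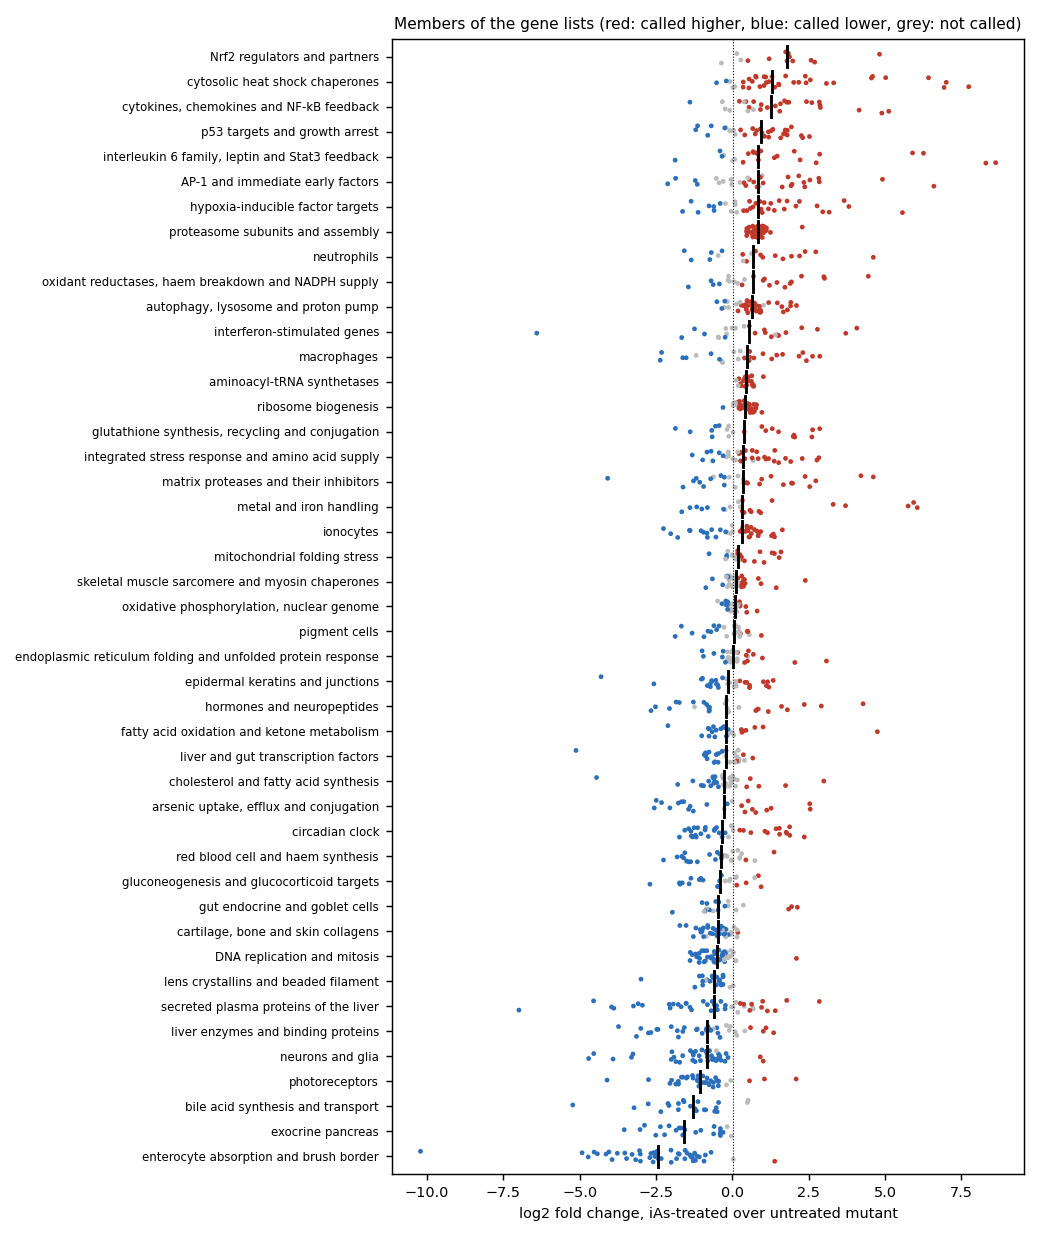
Log2 fold change, iAs-treated over untreated mutant, of every tested member of the 45 gene lists, with the list's median as a black bar and the median of all genes as a dotted line. Proteasome members lie close together on the right, enterocyte, pancreas and bile acid members spread far to the left, and muscle and oxidative phosphorylation members lie around 0; the point beyond -10 is the fitted value of MEP1B at 0 counts.

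Nervous system genes fell, with large falls in myelin genes. Of neuron and glia genes 2 of 43 genes rose and 40 fell (median log2 fold change -0.83). The myelin genes mbpa and plp1b fell 23.2-fold and 9.87-fold. By library, mbpa stood at 4.99, 6.2 and 5.73 CPM in treated mutants, against 137, 129 and 126 CPM in untreated mutants, with little spread in either group. The second myelin basic protein gene, mbpb, fell 1.76-fold. Oligodendrocyte factor OLIG2 fell 3.94-fold. GAD2, which makes the inhibitory transmitter GABA, fell 2.45-fold. The glutamate transporter SLC1A2 (ENSDARG00000102453), of astroglia, stood at 159.9, 146 and 161 CPM in treated mutants, against 629, 637 and 602 CPM in untreated mutants and fell 4.00-fold. The growth cone gene gap43 went up, at 109.7, 140.4 and 114 CPM in treated mutants, against 53.1, 61.2 and 66.6 CPM in untreated mutants, a rise of 2.02-fold. Of hormones and neuropeptides 8 of 28 genes rose and 12 fell (median log2 fold change -0.21). The genes of the appetite-regulating peptide CART went both ways. CARTPT (ENSDARG00000035852) stood at 21.7, 19.4 and 19.3 CPM in treated mutants, against 0.807, 1.54 and 0.763 CPM in untreated mutants and rose 19.4-fold, while CARTPT (ENSDARG00000045832) fell 5.72-fold and cart4 6.34-fold. The pituitary genes prl and POMC rose 7.53-fold and 5.12-fold, and the neuropeptide genes TRH and NPY fell 4.17-fold and 3.58-fold.

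Photoreceptor genes fell, with 1 opsin apart. In that list 3 of 40 genes rose and 35 fell (median log2 fold change -1.05). The green cone opsin gene opn1mw1 fell 2.84-fold. Its close relative opn1mw2 stood at 37.6, 42.5 and 29.8 CPM in treated mutants, against 8.33, 7.3 and 10 CPM in untreated mutants, all treated libraries above all untreated ones, and rose 4.25-fold. The opsin genes are near-identical copies, so how reads were assigned between them is uncertain. Most lens genes fell, as 0 of 25 genes rose and 21 fell (median log2 fold change -0.59), and CRYBB1 fell 2.34-fold. Circadian genes went both ways. Of the clock list 13 of 37 genes rose and 20 fell (median log2 fold change -0.33). Rises included the activator genes BMAL1 (ENSDARG00000035732), BMAL1 (ENSDARG00000006791) and npas2, at 2.92-fold, 2.91-fold and 2.7-fold, and the cryptochrome family gene cry4, at 5.12-fold. Falls included the repressor genes PER1 (ENSDARG00000012499), PER3 and BHLHE41, at 3.32-fold, 2.31-fold and 2.94-fold. The period gene PER2, by contrast, rose 1.52-fold. Collection was labelled at the same hour post-fertilization in all groups.

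Muscle structure changed little beside these tissues, as 13 of 37 genes rose and 5 fell (median log2 fold change 0.11). The actin gene actc1b had a log2 fold change of 0.08 (adjusted p = 0.34). The rises included myosin folding genes, as hsp90aa1.1, the muscle Hsp90, stood at 202, 179.8 and 203 CPM in treated mutants, against 36.7, 37.9 and 37.2 CPM in untreated mutants and rose 5.24-fold, and UNC45B rose 2.71-fold. Falls numbered 3 in place of 5 without untreated library 2 or treated library 2. Of cartilage, bone and skin collagen genes 1 of 36 genes rose and 26 fell (median log2 fold change -0.47), with 0 rises without untreated library 1, untreated library 3 or treated library 1, and 2 without untreated library 2 or treated library 2. COL10A1 (ENSDARG00000054753), of bone and hypertrophic cartilage, fell 2.86-fold, and col1a1a 1.99-fold. Of red cell and haem genes 2 of 27 genes rose and 15 fell (median log2 fold change -0.36). The anion exchanger SLC4A1 (ENSDARG00000012881) fell 4.77-fold and the haem-making enzyme alas2 2.94-fold.

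Of epidermal keratins and junction genes 10 of 32 genes rose and 14 fell (median log2 fold change -0.15), and the share that rose was close to that of all genes. The simple epithelial keratin krt18a.1 rose 2.53-fold and the adhesion gene epcam 2.3-fold, while PPL, a cornified envelope protein, fell 2.02-fold. Of ionocyte genes 20 of 38 genes rose and 13 fell (median log2 fold change 0.32), with slc12a10.2, a sodium-chloride carrier of these cells, up 2.54-fold. Of pigment cell genes 4 of 25 genes rose and 9 fell (median log2 fold change 0.06), with 2 rises in place of 4 without untreated library 3. The pigment cell members with the largest falls, XDH at 3.66-fold and pnp4a at 3.18-fold, belong to purine metabolism, while the melanin enzyme DCT had a log2 fold change of 0.11 (adjusted p = 0.30).

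Of the 4 groups, the 3 treated mutant libraries had the highest spread by value, which was not tested. Their common biological coefficient of variation, the relative spread beyond counting error, was 11.3%, against 8.71% in untreated mutants, 8.58% in treated wild type and 6.64% in untreated wild type. Without treated library 1 it was 8.81%, without library 2 10.6% and without library 3 13.6%. On the second principal component of the 6 mutant libraries, with 5.18% of the variance, treated library 1 stood at 32.4, library 3 at -5.29 and library 2 at -30.0. Libraries 1 and 2 thus lay at opposite ends. Among the 3396 genes that rose and averaged at least 20 CPM, library 1 was the highest of the 3 for 1860, or 54.8%, and library 2 the lowest for 1777, or 52.3%. Among the 2702 such genes that fell, library 1 was the lowest for 52.7% and library 2 the highest for 49.7%. Among 1984 genes that passed neither way, library 1, 2 and 3 was the highest for 32.8%, 36.1% and 31.1% and the lowest for 40.4%, 33.8% and 25.8%, so these genes showed a library order too. Genes of 1 library are not independent, so these shares describe the libraries.

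Among the genes that rose and averaged at least 20 CPM, 47 had an SD above 0.5 on the log2 scale in treated mutants and 8 in untreated mutants. Among those that fell these numbers were 12 and 3. The median SD was closer between the groups, at 0.0819 in treated and 0.0807 in untreated mutants for the genes that rose. For those that fell it was 0.096 and 0.0783, and for those that passed neither way 0.0769 and 0.0797. Genes that averaged below 20 CPM were not counted, though some named above, such as mmp13a, also spread widely. At 20 CPM or more the rises with the widest spread included hsp70l, hsp70.1, hsp70.3, FOSL1, HSPA2, JUNB (ENSDARG00000104773) and FOS. The Fos gene FOS stood at 108, 13.9 and 26.7 CPM in treated mutants, against 4.67, 2.83 and 11.8 CPM in untreated mutants. Treated library 1 and untreated library 3 each stood well above the others of their group. It rose 7.79-fold, 3.17-fold without treated library 1 and 13.1-fold without untreated library 3. The falls with the widest spread by that mean were fabp10a, ABCB11, ENPP7 (ENSDARG00000053526), TTR, RBP2 (ENSDARG00000093774), NR4A1, cyp3a65 and gvin1l2. Some passed through their untreated level, as ABCB11 stood at only 1.08, 0.453 and 2.1 CPM in treated mutants. The part of counting error in these spreads was not tested. The cytochrome P450 gene cyp3a65 stood at 70.8, 35.0 and 48.4 CPM in treated mutants, against 266, 274 and 315 CPM in untreated mutants, with library 1 highest and library 2 lowest.

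By list, AP-1 and immediate early genes followed library 1 most closely. It was the highest of the treated libraries for 30 of 32 members, and library 2 the lowest for 28, beside 36.2% and 35.1% of all genes. Their median log2 difference from the untreated mean was 1.34, 0.55 and 0.60 in treated libraries 1, 2 and 3, and -0.15, -0.04 and 0.22 in untreated libraries 1, 2 and 3. Library 1 was also highest for 24 of 28 cytokine genes, 19 of 25 interleukin 6 family and leptin genes, and 11 of 13 Nrf2 regulators. Other lists ordered the libraries differently. Library 1 was the lowest for 34 of 44 proteasome genes and 30 of 43 neuron and glia genes. Library 3 was the lowest for 27 of 36 collagen genes, 19 of 25 lens genes and 18 of 24 exocrine pancreas genes. Among all genes averaging at least 20 CPM, library 1 was the lowest for 22.8% of rises and 52.7% of falls. Library 3 was the lowest for 24.9% of those rises and 24.7% of those falls. The lists named here are examples from the 45. For enterocyte genes the 3 libraries gave medians of -2.36, -2.32 and -2.19, and for ribosome biogenesis 0.44, 0.42 and 0.42, so they lay close together there.

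**Figure D4:**
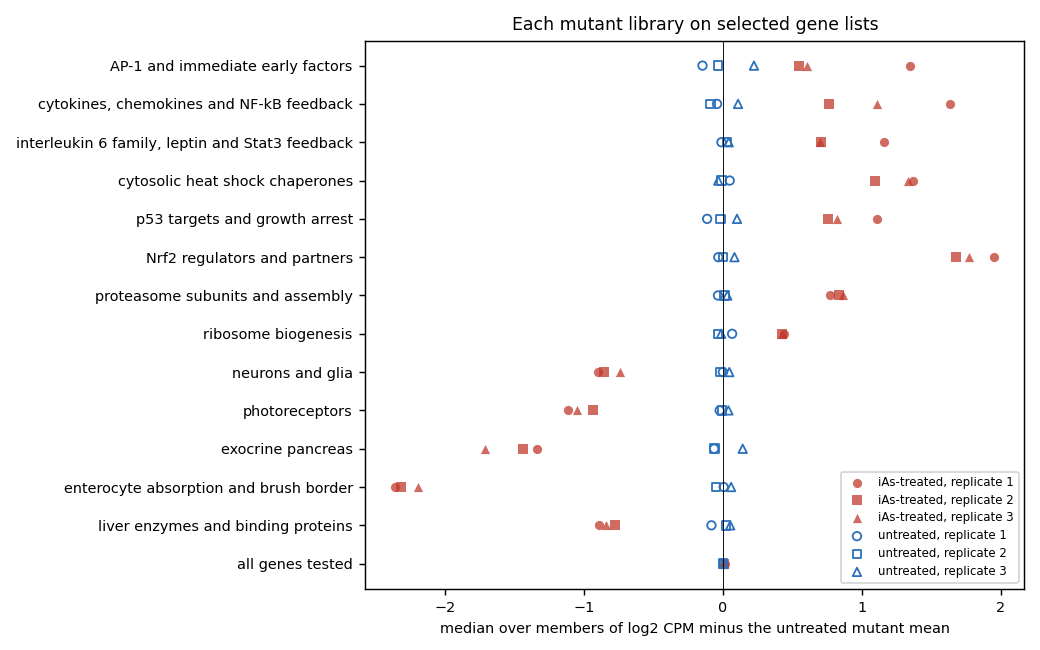
Median over each list's members of log2 CPM minus the untreated mutant mean, for the 3 iAs-treated (filled red) and 3 untreated (open blue) mutant libraries, marked by library number. Treated library 1 stands to the right of libraries 2 and 3 for AP-1, cytokine and interleukin 6 family genes, at 1.34 against 0.55 and 0.60 for AP-1, while the 3 treated libraries nearly coincide for ribosome biogenesis.

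Most genes called in wild type were called in the same direction in the mutant. In wild type 5230 genes rose, which is 22.6%, and 5124 fell, which is 22.2%. Of the wild-type rises 76.6% also rose in the mutant, and these 4008 genes were 55.9% of the mutant rises. Of the wild-type falls 83.4% also fell in the mutant, which made 56.8% of the mutant falls. Only 172 wild-type rises fell in the mutant and 141 wild-type falls rose there. The slope of each treated mutant library's response on the wild-type response, over 10354 genes called in wild type, was 1.15, 1.06 and 1.08 for libraries 1, 2 and 3. The mutant values were log2 CPM with a prior count of 2, and the wild-type values were fitted log2 fold changes. These measures differ at low counts. The mean slope was 0.979 with no filter and 1.22 at a mean count of at least 50, so its size depends on the filter. The interaction was called positive for 2842 genes, or 12.3%, and negative for 4142, or 17.9%. With library size alone as the scale these counts were 2110 and 5100, and with DESeq2's size factors 3208 and 3751. MT1X rose further in the mutant (interaction 1.23, adjusted p = 1.7e-06), as did hsp70l (2.85, adjusted p = 0.020), ATF3 (2.37, adjusted p = 1.2e-05) and HMOX1 (1.28, adjusted p = 4.4e-05). Interactions of single genes were not refitted without single libraries. The mutant log2 fold change of hsp70l was 6.65 without treated library 1, against 7.74 with all libraries. In the mutant fabp10a fell further than in wild type (interaction -2.71, adjusted p = 1.2e-06), as did CYP1A1 (-0.72, adjusted p = 1.4e-04). For GCLM the interaction was -0.18, adjusted p = 0.15, for lepb 0.88, adjusted p = 0.87 and for il11a 2.31, adjusted p = 0.23, none of which passed the test. Wild-type and mutant libraries were compared within 1 fit over all 12 libraries, and they share no controls.

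**Figure D5:**
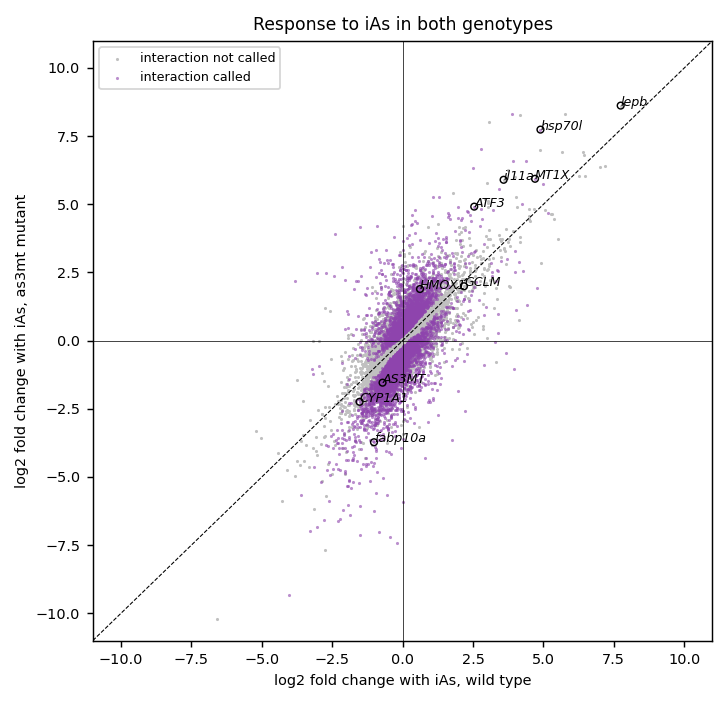
Log2 fold change with iAs of each tested gene in the as3mt mutant (vertical) against wild type (horizontal), with genes whose interaction was called in purple and the dashed line marking equal responses. MT1X, hsp70l, ATF3 and HMOX1 lie above the line, AS3MT, CYP1A1 and fabp10a below it, and the interaction of GCLM, lepb and il11a was not called.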

How the data were processed

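Each library was made by poly-A selection from 100 ng of RNA of 10 pooled whole larvae, with 12 PCR cycles, per the series' design text. Raw read counts for 32105 Ensembl gene IDs per library were deposited by the authors. The submitters' processing notes name the build GRCz10 and the tools Trimmomatic 0.36 and FastQC 0.11.5. For the aligner, the counter and the treatment of strand and shared reads, nothing is stated (not given in the sources used here), so near-identical or overlapping genes are uncertain. No batch label sets libraries apart. The labels do not say that libraries of a group came from separate clutches, so p-values measure the spread between these pools, which may be partly technical. Replicates of a group differed beyond sampling noise, and 0 pairs were identical.

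Groups came from the sample titles. Genes passing filterByExpr at a minimum count of 10 (23096) were scaled with TMM and fitted with edgeR 4.0.16 (glmQLFit, glmQLFTest) to the 4 groups over 12 libraries in R 4.3.3, and tested for iAs in the mutant, iAs in wild type and their difference. The script was first tested on simulated counts. Adjusted p-values are Benjamini-Hochberg over all genes, called below 0.05. SE is the absolute log2 fold change divided by the square root of the F statistic of its quasi-likelihood test. A fold is the antilog of the log2 fold change. Where 1 group had 0 counts, a floor of 3 counts over the group gives a bound, for counting error only. Totals of 28909467 to 43759270 counts over the 12 libraries make counting error small for well-expressed genes. Alternatives were DESeq2 1.42.0 and its size factors, library size alone, other filters, the mutant libraries alone, a replicate block and leaving out each library. Figures used matplotlib 3.10.9 and tables pandas 2.3.3, under Python 3.11.15.

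Symbols came from a table naming 26269 of the IDs, some in human style (MT1X, CYP1A1), and 1632 symbols cover more than 1 ID, for which the ID is printed. Of 1389 entries in 45 gene lists, 1298 were matched. The groups, lists and named genes were chosen with earlier results of these data known. The naming rule takes 10 fixed genes, the 12 largest rises and 12 largest falls among called, non-overlapping genes averaging 5 CPM or more, up to 4 called members per list with the largest change, and the 8 rises and 8 falls with the widest spread among treated libraries averaging 20 CPM or more. Other list members named as examples were chosen after their values were seen. No sequences are given, as none were in the sources used here. Some genes that the rule takes are not reported here.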

Additional observations from a re-analysis of the deposited data

Results flagged for a closer look

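Over all genes, edgeR's interaction test was called for 30.2%. The 10 genes followed in both genotypes were chosen with earlier results of these data known. Of these 10, 7 had a response to iAs that differed between the mutant and wild type by that test. As log2 differences, mutant response minus wild-type response, these were 1.23 for MT1X, 2.85 for hsp70l, 2.37 for ATF3 and 1.28 for HMOX1, which rose further in the mutant. They were -0.83 for AS3MT, -0.72 for CYP1A1 and -2.71 for fabp10a, which fell further in the mutant. Genotype and strain background cannot be told apart here. Single outlying libraries were not tested for, since each group holds 3. The interactions of these genes were not refitted without single libraries, and hsp70l was far higher in treated library 1 than in the other treated libraries.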

How the results depend on the processing

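Across the alternatives run, counts in the mutant ran from 6284 to 7371 rises and 6689 to 8189 falls, and 0 calls turned round. Leaving out each of the 12 libraries gave 6480 to 7247 rises, 7058 to 7637 falls, 2313 to 3264 positive and 3557 to 4001 negative interactions, a treated-mutant variation of 8.81 to 13.6% and a mean slope on the wild-type response of 1.04 to 1.1. That slope was 1.1 as reported, 0.979 with no filter and 1.22 at a mean count of at least 50, and the cause was not tested. Deviations from group means of same-numbered treated and untreated libraries correlated at -0.00869, 0.0064 and -0.0262 in the mutant. In wild type these correlations were 0.00649, 0.0374 and 0.0695. Between differently numbered libraries they ranged from -0.0132 to 0.0237 in the mutant and from -0.0676 to 0.0368 in wild type. Correlations this small over 3 libraries a group cannot show whether the numbers pair libraries, and the main fit left them unpaired. With the replicate number as a block there were 7057 rises, 7422 falls, and 2689 positive and 3996 negative interactions. With the 6 mutant libraries alone, where wild type gave no part of the spread, 6791 of 22451 genes rose and 7185 fell. The 191 genes taken by the naming rule kept direction and call in every alternative run for them. Most of these were taken as called genes with large changes in these same data, so their steadiness follows partly from the rule. Among the uncalled examples added by hand, aqp9b, NQO1, PCK1, HIF1A and plk1 turned sign in some alternatives. On the log2 scale aqp9b was 0.0106 with DESeq2's size factors and with DESeq2 itself and 0.0109 at a mean count of at least 50, and NQO1 was -0.0072 with library size alone. Leaving out single libraries gave -0.0406 to 0.0473 for aqp9b, -0.0359 to 0.231 for PCK1, -0.0914 to 0.0568 for HIF1A and -0.0862 to 0.0198 for plk1. The called examples in the report were picked partly for steady calls, so their steadiness is no result. Others first considered, ELAVL3, HSF2, ins and AQP3 (ENSDARG00000003808), which fell with all libraries, missed the threshold without some single libraries, as did mmp13b. List counts moved by over 1.5 times in 21 cases by library, given beside the lists, and in 17 by setting. For muscle the 5 falls became 3 with DESeq2's size factors or at a mean count of at least 50 and 8 with library size alone. That scale also gave 11 falls in place of 7 in the integrated stress response and 5 in place of 3 in autophagy. The 5 falls of interferon-stimulated genes became 3 in the mutant libraries alone and 1 at a mean count of at least 50, where hormones had 4 rises in place of 8 and replication and mitosis 0 in place of 1. Red cell rises became 4 in place of 2 with DESeq2 or the block. The 1 collagen rise became 0 with no filter, with library size alone or in the mutant libraries alone, and 2 with DESeq2's size factors, the block or a mean count of at least 50. Promoter motif shares were planned and not run, as no promoter sequences were used here. Depth limits genes with few counts per group, such as lepa, whose ratio carries a wide interval, and lepb, with few counts in untreated mutants.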

Other observations

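Some genes were seen in only 1 of the mutant groups, and they are named here after their values were seen. With 0 counts in all 3 untreated mutants, 4 genes rose. NAMPT (ENSDARG00000076694), of a family that makes the NAD precursor NMN, had 70, 24 and 18 counts in treated mutants and was at least 38.1-fold higher, or at least 22.2-fold without treated library 1. The chemokine gene ccl34b.8 had 29, 25 and 38 counts in treated mutants and was at least 31.3-fold higher. With 0 counts in all 3 treated mutants, 10 genes fell. Besides MEP1B they include KCNJ10 (ENSDARG00000105022), a potassium channel gene, with 30, 11 and 15 counts in untreated mutants and at least 18.3-fold lower in treated mutants, and zbtb32, with 16, 19 and 17 counts in untreated mutants and at least 17-fold lower in treated mutants. The interferon-stimulated gene ifit15 was among them too, at least 10.5-fold lower, while ifit14 of the same family rose. Floors of 3 counts over the group set these bounds, which cover counting error only.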
